A study of Homo sapiens with 10 samples.

Results

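The 10 genes described here are the core of the BCL2 family, the proteins that decide whether mitochondria release the factors that start apoptosis. They were chosen by symbol from the 23284 genes of the expression table, and all 10 were measured and passed the filter on low values. BCL2, BCL2L1 and MCL1 encode survival proteins, BAX and BAK1 encode the effectors, and BAD, BID, BCL2L11, BBC3 and PMAIP1 encode BH3-only proteins. K562 is an established human chronic myeloid leukemia line with erythroid features, grown here in RPMI with fetal bovine serum. The cells received vehicle (DMSO), CBP30 at 2 µM or 5 µM, or I-CBP112 at 2 µM or 5 µM for 48 h, with 2 biological replicates in each of the 5 groups. Both compounds block the bromodomains of CREBBP and EP300, related histone acetyltransferases that act as transcriptional coactivators. RNA was measured by sequencing of polyadenylated transcripts.

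Survival proteins hold the effectors and the BH3-only proteins in check. When BAX and BAK1 are freed or activated they permeabilize the outer mitochondrial membrane, cytochrome c reaches the cytosol, and APAF1 and caspase 9 switch on the caspase cascade. BH3-only proteins are the sensors upstream, and several of them are set mainly by how much of their mRNA a cell makes. In erythroid cells BCL2L1 is the best known survival gene of the family, and it is known as a target of the transcription factor GATA1. K562 cells also carry BCR-ABL1, a kinase known for keeping BCL2L1 high and BCL2L11 low.

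The proximal promoters are shown first, because GATA1 and MYC mRNA both fell with CBP30 and the question was which members carry the motifs of these factors close to a start site. Promoter sequences came from RefSeq (GRCh38.p14), and 9 of the 10 members had an entry. MCL1 had none. Over the 250 bases before each start, 15 windows in all, 3 members held the E-box CACGTG, the motif that MYC and many related factors can bind. BAX held 4 copies, BBC3 1 and BID 1, the last shared by 2 overlapping windows among the 5 start sites of BID. Of all 35116 windows of the same length 6.34% held this E-box, or 7.73% of 27305 genes. The E-boxes are in capitals below, and each sequence reads 5′ to 3′ toward its start site.
BAX, chr19:48954625-48954874, plus strand: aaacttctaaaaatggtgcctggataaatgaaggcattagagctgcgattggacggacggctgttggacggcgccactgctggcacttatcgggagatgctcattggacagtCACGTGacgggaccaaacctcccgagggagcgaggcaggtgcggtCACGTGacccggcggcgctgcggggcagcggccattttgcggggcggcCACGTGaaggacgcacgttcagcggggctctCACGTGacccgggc
BBC3, chr19:47232668-47232917, minus strand: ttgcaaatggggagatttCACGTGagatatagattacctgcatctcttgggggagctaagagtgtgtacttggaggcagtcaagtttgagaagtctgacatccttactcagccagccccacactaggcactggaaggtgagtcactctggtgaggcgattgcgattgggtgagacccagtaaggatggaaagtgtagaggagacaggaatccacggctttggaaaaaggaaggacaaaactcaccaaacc
BID, start site 2, chr22:17773984-17774233, minus strand: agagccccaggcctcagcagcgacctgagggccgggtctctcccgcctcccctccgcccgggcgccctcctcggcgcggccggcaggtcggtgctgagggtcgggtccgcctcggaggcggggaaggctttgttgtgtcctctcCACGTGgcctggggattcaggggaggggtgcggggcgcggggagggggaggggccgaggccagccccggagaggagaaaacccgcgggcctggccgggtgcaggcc

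No GATA element (the letters GATA preceded by A or T and followed by A or G, on either strand) was found in any of the 15 windows, whereas 22.3% of all windows and 26.2% of genes held at least 1. Both start sites of BCL2L1 are therefore shown without capitals, followed by that of PMAIP1, the member that changed most upward with 5 µM CBP30. A motif match is a description of these letters and not a binding site, and its absence says nothing of elements farther away.
BCL2L1, start site 1, chr20:31723964-31724213, minus strand: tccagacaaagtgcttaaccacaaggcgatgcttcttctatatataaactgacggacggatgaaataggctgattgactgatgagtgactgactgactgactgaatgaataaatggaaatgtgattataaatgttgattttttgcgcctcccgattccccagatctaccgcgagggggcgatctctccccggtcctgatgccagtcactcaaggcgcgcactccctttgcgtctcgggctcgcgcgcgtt
BCL2L1, start site 2, chr20:31722869-31723118, minus strand: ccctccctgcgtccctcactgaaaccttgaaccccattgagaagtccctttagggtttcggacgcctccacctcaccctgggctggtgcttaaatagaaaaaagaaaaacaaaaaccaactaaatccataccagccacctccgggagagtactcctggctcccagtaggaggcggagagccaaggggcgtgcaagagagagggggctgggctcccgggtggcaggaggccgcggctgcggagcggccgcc
PMAIP1, chr18:59899746-59899995, plus strand: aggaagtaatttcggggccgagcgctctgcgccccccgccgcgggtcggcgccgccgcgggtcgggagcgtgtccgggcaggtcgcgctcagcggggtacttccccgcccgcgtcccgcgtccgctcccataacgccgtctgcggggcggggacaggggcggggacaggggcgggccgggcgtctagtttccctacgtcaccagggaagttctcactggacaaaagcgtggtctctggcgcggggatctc

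Values are FPKM, fragments scaled to transcript length and to the mapped reads of the library, so levels of different genes can be set side by side per length. A library of the 10 stood apart. Replicate 1 of 2 µM CBP30 had a summed FPKM of 689095, against 547504 to 620641 in the other 9, and EEF1A1, among the most abundant mRNAs of any cell, was listed at 0 in it and at 5338 to 6661 elsewhere. In this library the fifth of genes with the shortest transcripts lay a median 0.30 above DMSO on the log2 scale and the fifth with the longest at -0.30, whereas in both libraries of 5 µM CBP30 the trend ran the other way (medians of -0.12 and -0.11 at the short end, 0.12 in both at the long end). BAX (transcript of 795 bases) and BAD (929 bases) are the members with the shortest transcripts, so the member calls for 2 µM CBP30 against DMSO are given also without this library and with the length trend removed. The 4 erythroid markers KLF1, TFRC, HBZ and TAL1 were present in every library, with summed levels of 830.2 to 870.4 FPKM in DMSO and 216 to 226 with 5 µM CBP30. HBZ made most of the DMSO sum (630.3 and 589 FPKM), and while HBZ, KLF1 and TFRC fell with 5 µM CBP30, TAL1 rose from 17.4 in both DMSO samples to 23.4 and 24.2 (0.43, adjusted p = 0.00127). The 4 markers of T cells, fibroblasts and hepatocytes (CD3E, COL1A1, COL3A1 and ALB) summed to 1.88 to 1.92 FPKM in DMSO and 5.36 to 5.70 with 5 µM CBP30, where COL3A1 stayed at or below 0.02 and CD3E and COL1A1 rose. The part of these shifts in the results below was not tested. In bulk RNA, fewer cells expressing a gene and less RNA per cell cannot be told apart.

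In vehicle-treated cells MCL1 was the highest of the 10 members, at 102 and 107 FPKM in the 2 samples, and BCL2L1 came next, at 98.0 and 99.2. Both were more than 10-fold above BCL2, the founding member of the family, at 5.70 and 6.68 FPKM. BAX (50.5 and 47.5) and PMAIP1 (48.4 and 49.2) followed and overlapped each other. BCL2L11, BBC3 and BID lay at 27.3 to 31.3 FPKM, where BBC3 overlapped both of the others and BCL2L11 was above BID, and BAK1 stood below them at 13.5 and 14.5. BAD, at 6.15 and 5.78, overlapped BCL2 at the bottom of the order.

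With 5 µM CBP30, 6 of the 10 members rose and 2 fell. PMAIP1, BAD, BCL2L11, BCL2L1, BAK1 and MCL1 were higher than in DMSO, BBC3 and BID were lower, and BCL2 and BAX did not pass the test. A gene was called changed when limma's adjusted p was under 0.05, and the same rule called 46.6% of all 12788 tested genes in this comparison (21.2% higher and 25.4% lower). The median difference of the members was 0.36 on the log2(FPKM + 1) scale, beside -0.01 for all tested genes. All differences and standard errors below are on this scale, which understates the change of genes at low levels.

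**Figure D1:**
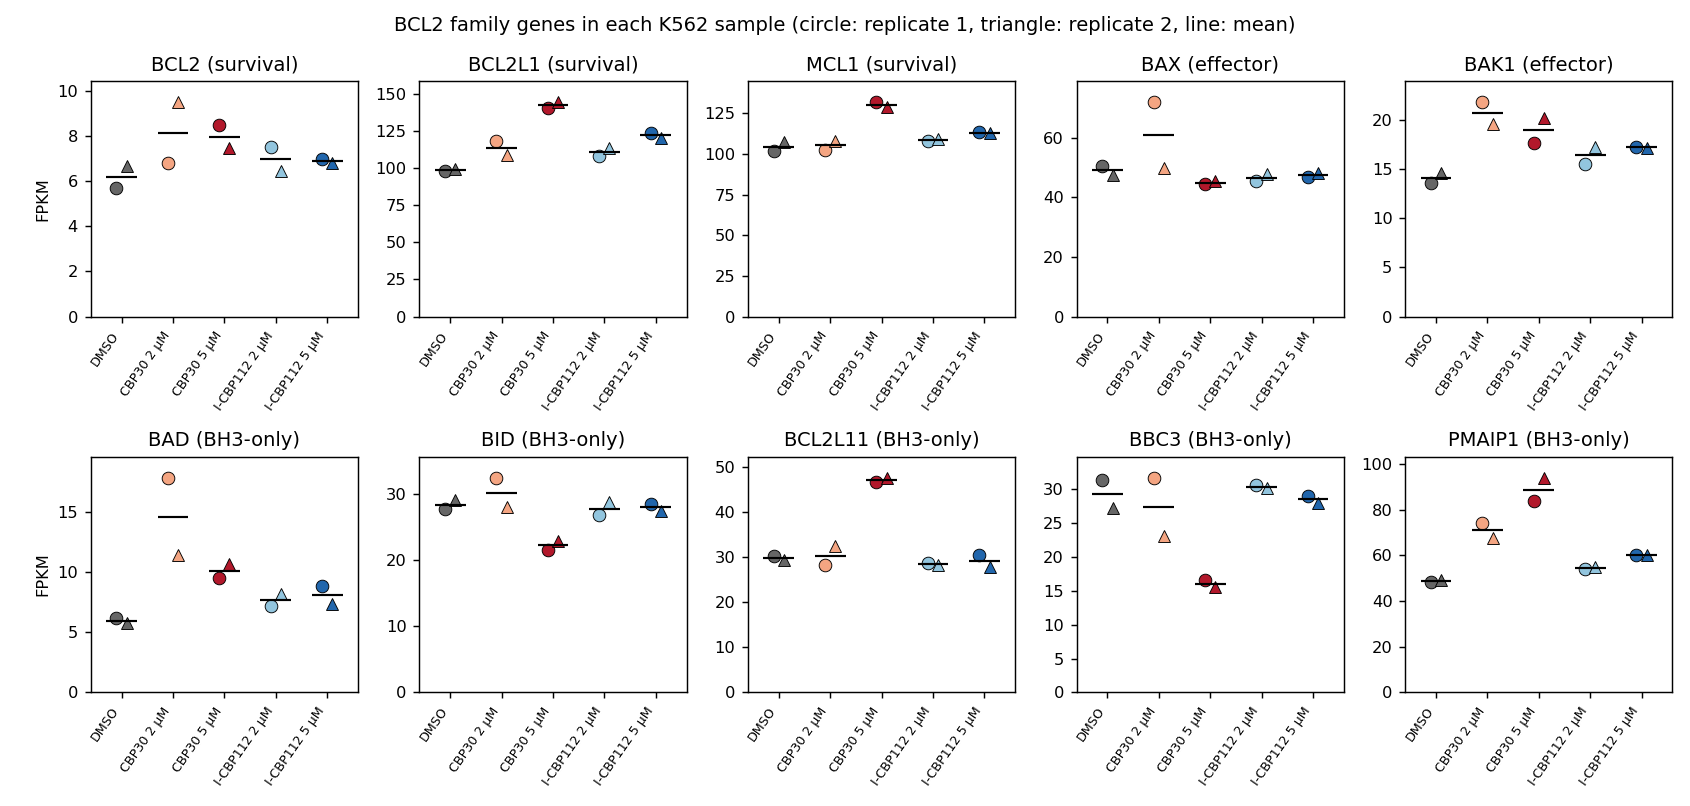
FPKM of the 10 BCL2 family genes in each of the 10 K562 samples, by treatment group. Circles are replicate 1, triangles replicate 2, and the line is the mean of both; each vertical axis starts at 0 and has its own scale. PMAIP1, BCL2L1 and BCL2L11 are highest with 5 µM CBP30 and BBC3 is lowest there, while BAD and BAX differ widely between the 2 samples of 2 µM CBP30.

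Among the survival genes, BCL2L1 (chr20:30252255-30311792 in GRCh37, minus strand) moved most. Its protein Bcl-xL binds both effectors and BH3-only proteins, and the gene also makes a short pro-apoptotic splice form that these gene-level values do not separate. DMSO gave 98.0 and 99.2 FPKM, 2 µM CBP30 118 and 109, 5 µM CBP30 141 and 144, 2 µM I-CBP112 108 and 114, and 5 µM I-CBP112 124 and 120. All 8 treated samples lay above both DMSO samples, and the 5 µM CBP30 samples lay above every other. The difference from DMSO with 5 µM CBP30 was 0.53 (SE 0.0568, adjusted p = 0.000367), a mean of 144% of DMSO, and it passed the test under all 20 alternatives.

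MCL1 (chr1:150533371-150552214, minus strand) encodes a short-lived survival protein. Its levels were 102 and 107 FPKM in DMSO, 102 and 108 with 2 µM CBP30, 132 and 129 with 5 µM CBP30, 108 and 109 after 2 µM I-CBP112 and 113 in both samples of 5 µM I-CBP112. The 5 µM CBP30 samples were above every other, at 0.32 over DMSO (SE 0.0502, adjusted p = 0.00204), again under all 20 alternatives. The order of the 2 genes turned. The ratio of BCL2L1 to MCL1 FPKM was 0.965 and 0.926 in the DMSO samples, 1.07 and 1.12 with 5 µM CBP30, and above 1 in each of the 8 treated samples. It was near equality in replicate 1 of 2 µM I-CBP112 (1.002) and replicate 2 of 2 µM CBP30 (1.005).

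BCL2 itself (chr18:60790579-60987361, minus strand) remained a minor member. It was measured at 5.70 and 6.68 FPKM in DMSO, 8.48 and 7.46 with 5 µM CBP30, and 6.79 and 9.48 with 2 µM CBP30. Both CBP30 groups lay above DMSO without overlap, but the difference at 5 µM was 0.32 with a 95% interval of -0.03 to 0.67 (adjusted p = 0.118). It passed only when one of the 2 µM CBP30 samples was left out of the fit (adjusted p = 0.0297 without replicate 1 and 0.0299 without replicate 2).

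Of the effectors, BAK1 rose and BAX did not. BAK1 (chr6:33540324-33548070, minus strand), resident on the mitochondrial membrane, was at 13.5 and 14.5 FPKM in DMSO, 21.7 and 19.6 with 2 µM CBP30, 17.7 and 20.2 with 5 µM CBP30, 15.5 and 17.2 after 2 µM I-CBP112 and 17.3 and 17.1 with 5 µM I-CBP112. Every treated sample was above both DMSO samples. The difference at 5 µM CBP30 was 0.40 (SE 0.0874, adjusted p = 0.00781), and it lost the call without replicate 1 of DMSO (0.36, adjusted p = 0.0568) or without replicate 2 of 5 µM CBP30 (0.31, adjusted p = 0.0570). BAK1 has processed copies elsewhere in the genome, and how reads shared with them were assigned is not given in the sources used here.

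BAX (chr19:49458072-49465055, plus strand), which moves from the cytosol to mitochondria when activated, was at 50.5 and 47.5 FPKM in DMSO and at 44.3 and 45.4 with 5 µM CBP30. Its difference there was -0.13, with an interval of -0.47 to 0.22 (adjusted p = 0.517). The sign depended on the length trend: with that trend removed the difference was 0.03 (adjusted p = 0.692). The 2 samples of 2 µM CBP30, which enter the shared estimate of the spread, were at 71.8 and 49.7 FPKM, the first in the library that stood apart. Without that library the same -0.13 passed the test (adjusted p = 0.0376), as it did without the second (adjusted p = 0.0375), so the call of BAX rests on which samples estimate the spread. BAX carries the 4 E-boxes printed above.

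The BH3-only genes moved in opposite directions. PMAIP1 (chr18:57567228-57571537, plus strand) encodes NOXA, which binds MCL1 in particular. Its values were 48.4 and 49.2 FPKM in DMSO, 74.3 and 67.6 with 2 µM CBP30, 83.8 and 93.9 with 5 µM CBP30, 53.9 and 54.8 after 2 µM I-CBP112, and 60.1 in both samples of 5 µM I-CBP112. No treated sample overlapped DMSO, and the 2 concentrations of CBP30 did not overlap each other. At 5 µM CBP30 PMAIP1 was at 182% of the DMSO mean (0.85, SE 0.0683, adjusted p = 0.000104), the largest rise of the 10 genes and one that passed under all 20 alternatives.

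BCL2L11 (chr2:111876955-111926021, plus strand) encodes BIM, which binds all survival members. It was at 30.4 and 29.5 FPKM in DMSO, 28.3 and 32.5 with 2 µM CBP30, and 46.7 and 47.6 with 5 µM CBP30. Both I-CBP112 groups stayed near DMSO, at 28.7 and 28.2 with 2 µM and 30.5 and 27.8 with 5 µM. The rise was thus seen at the higher CBP30 concentration (0.64, SE 0.0737, adjusted p = 0.000484), where it passed under all 20 alternatives. The difference at 2 µM CBP30 was 0.02 with an interval of -0.16 to 0.19, and it was 0.11 without the library that stood apart (adjusted p = 0.165) and 0.10 with the length trend removed (adjusted p = 0.135).

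BBC3 (chr19:47724079-47736023, minus strand) encodes PUMA, like BIM a binder of all survival members, and it moved the other way. DMSO samples had 31.3 and 27.3 FPKM, 2 µM CBP30 31.7 and 23.1, 5 µM CBP30 16.6 and 15.6, 2 µM I-CBP112 30.6 and 30.2, and 5 µM I-CBP112 29.1 and 27.9. The 5 µM CBP30 samples were below every other sample, at 54.8% of the DMSO mean. The difference of -0.83 (SE 0.135, adjusted p = 0.00236) was the largest fall among the members and passed under all 20 alternatives.

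BID (chr22:18216904-18257536, minus strand), which caspase 8 cleaves to link death receptors to mitochondria, fell less. It was at 27.8 and 29.1 FPKM in DMSO and at 21.6 and 22.9 with 5 µM CBP30 (-0.34, SE 0.0777, adjusted p = 0.00992), and between 26.8 and 32.5 in the other 6 samples. The call was lost without replicate 2 of DMSO (-0.31, adjusted p = 0.0625) or replicate 1 of 5 µM CBP30 (-0.30, adjusted p = 0.0673). BAX, BBC3 and BID, the 3 members with an E-box in the proximal promoter, had differences of -0.13, -0.83 and -0.34 at 5 µM CBP30. That of BAX was not called and turned to 0.03 with the length trend removed. The 6 members with a promoter entry but no E-box had differences of 0.32 to 0.85, and that of BCL2, the lowest, was not called. At 2 µM CBP30 the 3 E-box members were at 0.28 (BAX), -0.11 (BBC3) and 0.08 (BID). At 5 µM I-CBP112 they were at -0.05, -0.04 and -0.02. None of these was called in the fit of all 5 groups, and MYC mRNA was also lower than DMSO in both treatments. The E-box grouping is a description of 9 genes with no test, and the comparison with all tested genes was void because under 80% of them had a promoter entry.

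BAD (chr11:64037302-64052176, minus strand), which phosphorylation by survival kinases keeps inactive, was the scarcest of the 5 BH3-only members. It was listed at 6.15 and 5.78 FPKM in DMSO, 17.8 and 11.4 with 2 µM CBP30, 9.53 and 10.7 with 5 µM CBP30, 7.23 and 8.18 after 2 µM I-CBP112, and 8.87 and 7.34 with 5 µM I-CBP112. Every treated sample exceeded both DMSO samples. At 5 µM CBP30 the difference was 0.67 (SE 0.187, adjusted p = 0.0226), and the call was lost when any 1 of the 4 samples compared was left out (0.60 to 0.75, adjusted p = 0.0652 to 0.120).

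**Figure D2:**
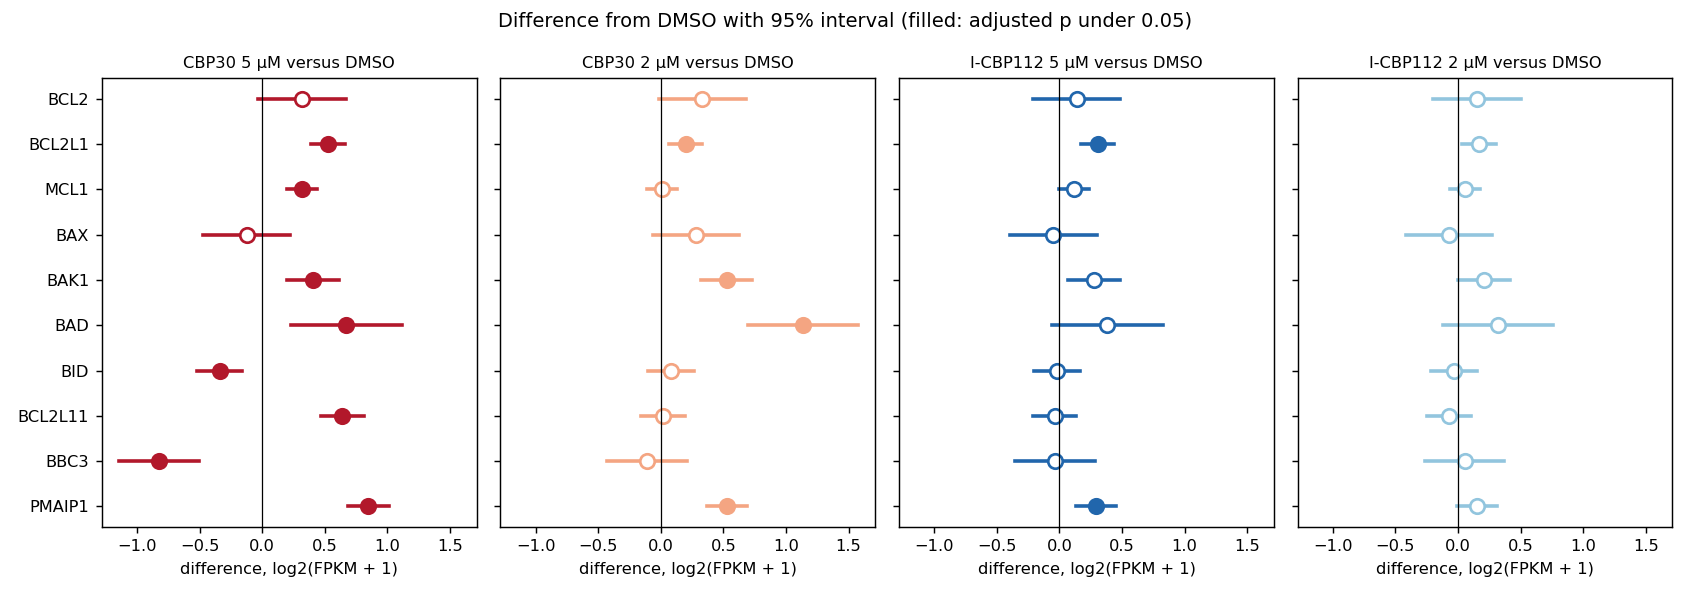
Difference of each member from DMSO on the log2(FPKM + 1) scale in the 4 treatment groups, with 95% intervals from limma; filled points have an adjusted p under 0.05. CBP30 has 8 filled points at 5 µM and 4 at 2 µM, I-CBP112 has 2 at 5 µM and 0 at 2 µM.

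With 2 µM CBP30, 4 members rose and 0 fell, where 32.1% of all tested genes were called (15.9% higher and 16.3% lower). These were BAD (1.14, SE 0.187, adjusted p = 0.00483), PMAIP1 (0.53, SE 0.0683, adjusted p = 0.00183), BAK1 (0.53, SE 0.0874, adjusted p = 0.00497) and BCL2L1 (0.20, SE 0.0568, adjusted p = 0.0358). In a limma fit of only the 4 samples compared 0 of the members passed, with 3 at an unadjusted p under 0.05. Without the library that stood apart, BAD was at 0.83 (adjusted p = 0.00435), PMAIP1 at 0.46 (adjusted p = 0.00340), BAK1 at 0.45 (adjusted p = 0.0144) and BCL2L1 at 0.14 (adjusted p = 0.0484), and BCL2 (0.55, adjusted p = 0.0168) and BBC3 (-0.33, adjusted p = 0.0252) passed as well. With that library as the only sample of the group BAX (0.54, adjusted p = 0.000404) and BID (0.18, adjusted p = 0.0424) passed instead. With the length trend removed the 2 samples of BAX came closer, at 55.4 and 49.3 FPKM, as did those of BAD, at 13.8 and 11.3, and BAD stayed called at 0.96 (adjusted p = 0.000663). PMAIP1 (0.44, adjusted p = 0.000881), BAK1 (0.46, adjusted p = 0.00240) and BCL2L1 (0.15, adjusted p = 0.00989) stayed called too, and BCL2 (0.48, adjusted p = 0.00743) was added. The call of BCL2L1 was the least stable of the 4, since it was lost in 9 of 20 alternatives, 7 of which left out 1 of the other libraries (0.19 without replicate 1 of DMSO, adjusted p = 0.142, and 0.21 without replicate 2, adjusted p = 0.122). The other 5 were either sample of 5 µM CBP30, either of 5 µM I-CBP112 and replicate 2 of 2 µM I-CBP112, where the difference stayed at 0.20 with adjusted p of 0.0503 to 0.0636.

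The step from 2 to 5 µM CBP30 separated the members further. BCL2L11 (0.62, SE 0.0737, adjusted p = 0.00243), BCL2L1 (0.33, SE 0.0568, adjusted p = 0.00759), PMAIP1 (0.32, SE 0.0683, adjusted p = 0.0139) and MCL1 (0.31, SE 0.0502, adjusted p = 0.00648) were higher at 5 µM. BBC3 (-0.72, SE 0.135, adjusted p = 0.00966) and BID (-0.42, SE 0.0777, adjusted p = 0.00887) were lower. The 6 calls stand beside 38.9% of all tested genes (17.6% higher and 21.3% lower). In a limma fit of only these 4 samples 0 passed, with 6 at an unadjusted p under 0.05. Without replicate 1 of 2 µM CBP30, or with the length trend removed, 6 members again passed, but without replicate 2 of 5 µM CBP30 BCL2L1 (0.31, adjusted p = 0.0588), PMAIP1 (0.24, adjusted p = 0.0826) and BBC3 (-0.67, adjusted p = 0.0679) missed the threshold, and without replicate 1 of that group BBC3 (-0.76, adjusted p = 0.0535) and BID (-0.38, adjusted p = 0.0635) did. BAX (-0.67, adjusted p = 0.000175) and BAD (-0.76, adjusted p = 0.00248) were called lower when replicate 2 of 2 µM CBP30 was left out and the library that stood apart remained.

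I-CBP112 moved the family less. At 5 µM BCL2L1 (0.30, SE 0.0568, adjusted p = 0.0239) and PMAIP1 (0.29, SE 0.0683, adjusted p = 0.0486) rose, where 7.12% of all tested genes were called (3.84% higher and 3.28% lower). Neither call held without either DMSO sample: BCL2L1 was then at 0.30 and 0.31 (adjusted p = 0.149 and 0.122) and PMAIP1 at 0.28 and 0.31 (adjusted p = 0.229 and 0.183). Leaving out either sample of 5 µM I-CBP112 or of 5 µM CBP30 also ended both calls, with adjusted p from 0.0545 to 0.219, and leaving out either 2 µM I-CBP112 sample ended that of PMAIP1 (adjusted p = 0.0898 and 0.0904). The PMAIP1 call was also lost with no filter, a filter at 5 FPKM, median centring, eBayes without the trend or a replicate block. It was lost in 13 of 20 alternatives, and that of BCL2L1 in 6. BAK1 was above DMSO in both samples at 0.28 (adjusted p = 0.114), as was BAD at 0.38 (adjusted p = 0.293), which passed without either 2 µM CBP30 sample (adjusted p = 0.0436 for each). At 2 µM I-CBP112 limma called 0 members, with 2 at an unadjusted p under 0.05 (BCL2L1 and BAK1), beside 1.60% of all tested genes. BCL2L1, at 0.17, was called there without either 2 µM CBP30 sample (adjusted p = 0.0408 for each). The median of the members was 0.13 at 5 µM and 0.10 at 2 µM, against 0.00 for all tested genes in both. Between 2 and 5 µM I-CBP112 limma again called 0 members, with BCL2L1 alone at an unadjusted p under 0.05, where 0.0626% of genes were called.

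The inhibitors were then compared with each other at the same concentration. At 5 µM, 6 members differed, beside 31.4% of all tested genes (13.6% higher and 17.9% lower). BCL2L11 (0.68, SE 0.0737, adjusted p = 0.000941), PMAIP1 (0.55, SE 0.0683, adjusted p = 0.00147), BCL2L1 (0.22, SE 0.0568, adjusted p = 0.0251) and MCL1 (0.20, SE 0.0502, adjusted p = 0.0229) were higher with CBP30, and BBC3 (-0.79, SE 0.135, adjusted p = 0.00537) and BID (-0.32, SE 0.0777, adjusted p = 0.0208) were lower. BCL2L11, PMAIP1 and BBC3 kept these calls in all 20 alternatives. BCL2L1, MCL1 and BID lost theirs when any 1 of the 4 samples compared was left out, with adjusted p of 0.0849 to 0.132, 0.0849 to 0.117 and 0.0684 to 0.118. The intervals of the other 4 members were -0.17 to 0.53 for BCL2, -0.42 to 0.27 for BAX, -0.08 to 0.33 for BAK1 and -0.15 to 0.73 for BAD, which leave room for sizeable differences. With the length trend removed 8 members were called (6 higher and 2 lower with CBP30), and with median centring 5 (3 higher and 2 lower).

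At 2 µM, where 15.6% of all tested genes were called (7.13% higher and 8.45% lower), CBP30 gave higher BAD (0.81, SE 0.187, adjusted p = 0.0322) and PMAIP1 (0.38, SE 0.0683, adjusted p = 0.0156) than I-CBP112. BAK1 was just outside the threshold (0.32, SE 0.0874, adjusted p = 0.0503). BCL2L1 differed by 0.03, with an interval of -0.10 to 0.17. The call of BAD was lost without any 1 of the DMSO, 5 µM CBP30, 2 µM I-CBP112 or 5 µM I-CBP112 samples (0.74 to 0.89, adjusted p = 0.0587 to 0.171), and that of PMAIP1 without either 2 µM I-CBP112 sample (0.36 and 0.39, the lower adjusted p = 0.0770). Without replicate 1 of 2 µM CBP30 BBC3 was lower with CBP30 (-0.38, adjusted p = 0.0280), and without replicate 2 BAX (0.61, adjusted p = 0.000446), BAK1 (0.39, adjusted p = 0.0159) and BID (0.22, adjusted p = 0.0263) were higher. The step from 2 to 5 µM differed between the inhibitors for BCL2L11 (0.59, SE 0.104, adjusted p = 0.0330), beside 4.94% of all tested genes, a call that was lost in 10 of 20 alternatives, 8 of them with 1 library left out (either sample of DMSO, 5 µM CBP30, 2 µM I-CBP112 or 5 µM I-CBP112, with 0.52 to 0.65 and adjusted p of 0.0761 to 0.135). The adjusted p for BBC3 (-0.63), BID (-0.43) and MCL1 (0.24) in this interaction was 0.0836, 0.0634 and 0.0772. All 3 passed without replicate 1 of 2 µM CBP30 (-0.41, -0.33 and 0.20, with adjusted p of 0.0490, 0.0390 and 0.0433), as did BCL2L1 (0.25, adjusted p = 0.0331), and without replicate 2 BAX (-0.69) and BAD (-0.83) passed beside these 3.

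Summed by role, the survival genes went from 205 and 213 FPKM in DMSO to 281 and 280 with 5 µM CBP30, and the BH3-only genes from 144 and 141 to 178 and 191. The ratio of BH3-only to survival FPKM was 0.702 and 0.662 in DMSO and 0.635 and 0.681 with 5 µM CBP30, so that the 2 groups overlapped. The ratio was 0.813 and 0.719 with 2 µM CBP30, above DMSO in both, the higher from the library that stood apart, and 0.629 to 0.660 over the 4 I-CBP112 samples. With BAX and BAK1 added to the BH3-only genes, the ratio to survival FPKM was 1.01 and 0.953 in DMSO and lower in both samples of 5 µM CBP30, at 0.856 and 0.915, and in the 4 I-CBP112 samples, at 0.901 to 0.938. These sums keep the length trend. With that trend removed, BAX was at 50.2 and 47.8 FPKM in DMSO and at 49.4 and 50.7 with 5 µM CBP30. With the trend removed from all members, the ratio with BAX and BAK1 added no longer separated 5 µM CBP30 from DMSO. Replicate 2 of 5 µM CBP30 was then level with replicate 2 of DMSO, and replicate 1 stayed below both DMSO samples. With 2 µM CBP30 the ratio with BAX and BAK1 added was 1.23 in the library that stood apart. In the other sample it was 1.03, only just above DMSO. The make-up of the BH3-only sum shifted as well. BCL2L11 and PMAIP1 together made 54.7% and 55.8% of it in DMSO and 73.2% and 74.2% with 5 µM CBP30, whereas BBC3 went from 21.8% and 19.4% to 9.29% and 8.18%. These are shares of mRNA and carry no information on protein.

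**Figure D3:**
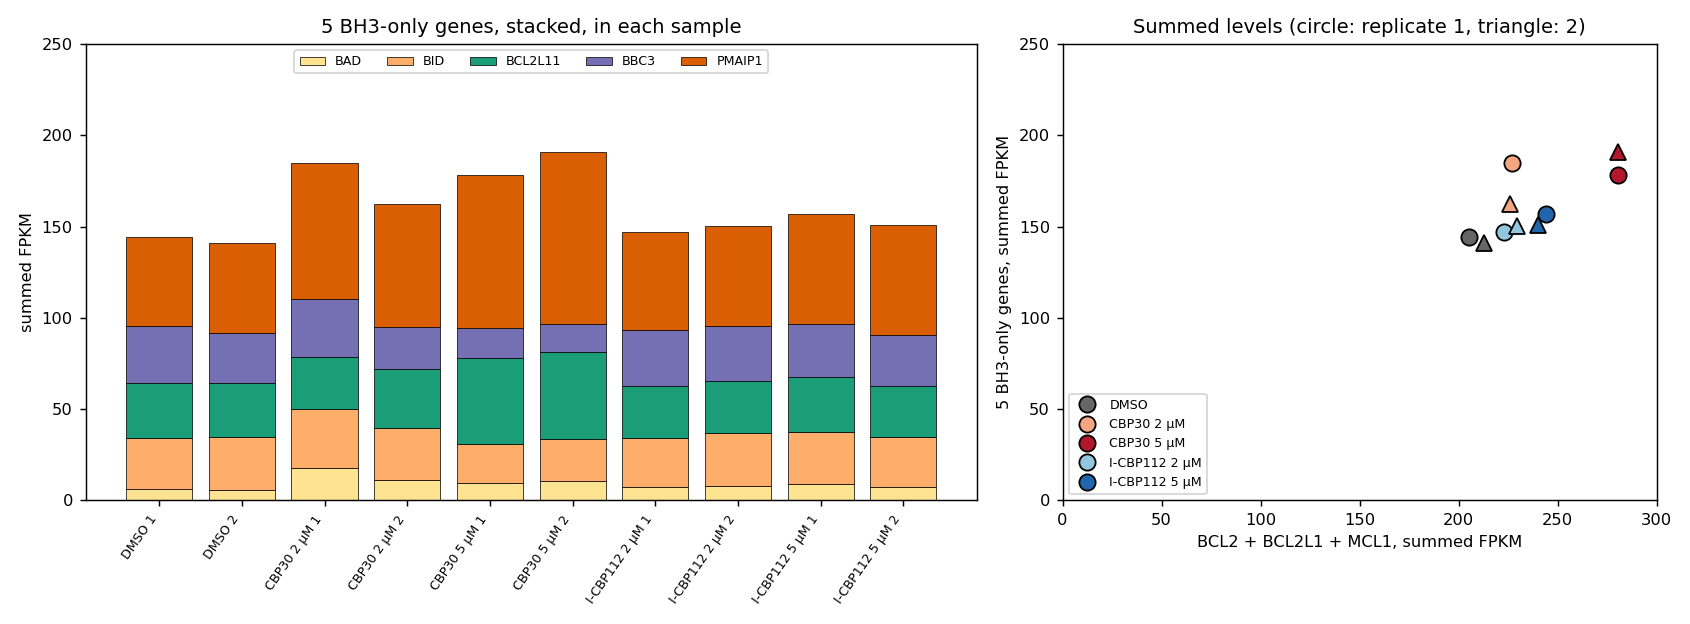
Left, FPKM of the 5 BH3-only genes stacked for each of the 10 samples; right, the BH3-only sum against the sum of BCL2, BCL2L1 and MCL1, 1 point per sample (circle replicate 1, triangle replicate 2), both axes from 0. The PMAIP1 and BCL2L11 segments widen and the BBC3 segment narrows with 5 µM CBP30, whose 2 points lie farthest right at 280 and 281.

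Across the 10 samples, the member most like BCL2L1 was PMAIP1 (Pearson's r = 0.884), BCL2L11 was most like MCL1 (r = 0.883), BAK1 was most like BAD (r = 0.929), and BID was most like BBC3 (r = 0.869). BCL2L11 and BBC3 were the most opposed (r = -0.963). Of 8996 genes averaging 5 FPKM or more, those closest to BCL2L1 were CDKN1A (r = 0.986), the cell cycle inhibitor p21, then SH3BGRL3 (0.986), CD52 (0.986), ZNF559 (0.974) and MXRA7 (0.969). CDKN1A averaged 5.55 FPKM in DMSO and 17.6 with 5 µM CBP30. These values describe 10 samples that fall into treatment groups and carry no test.

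The 2 factors that the members' promoters were read for changed in the same samples. GATA1, the erythroid master regulator, was at 170 and 171 FPKM in DMSO, 105 and 85.3 with 2 µM CBP30, 53.5 and 52.7 with 5 µM CBP30, 138 and 151 after 2 µM I-CBP112, and 139 and 130 with 5 µM I-CBP112. It fell by 1.66 with 5 µM CBP30 (SE 0.0985, adjusted p = 2.99e-05) and by 0.84 with 2 µM (adjusted p = 0.00128), in the groups where its known target BCL2L1 rose by 0.53 and 0.20. The 2 µM value was -0.99 without the library that stood apart and -0.97 with the length trend removed, and it missed the threshold when only these 4 samples were fitted (adjusted p = 0.0712). At 5 µM I-CBP112 its difference of -0.34 had an adjusted p of 0.0913. It passed in 6 of 20 alternatives, among them the removal of the length trend (adjusted p = 0.00283) and the omission of either 2 µM CBP30 sample (adjusted p = 0.00712 and 0.00717), and the call of BCL2L1 in that group was lost in 6.

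MYC, a proliferation factor that can also sensitize cells to apoptosis, was at 338 and 320 FPKM in DMSO, 148 and 146 with 2 µM CBP30, 81.7 and 80.9 with 5 µM CBP30, 241 and 231 after 2 µM I-CBP112, and 210 and 201 with 5 µM I-CBP112. The groups did not overlap. MYC fell by 2.00 with 5 µM CBP30 (SE 0.0525, adjusted p = 1.02e-06) and by 0.68 with 5 µM I-CBP112 (adjusted p = 0.000959).

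The wider pathway was read from 54 further genes in 6 lists, of which 45 passed the filter. With 5 µM CBP30, 11 of the 45 rose and 15 fell (57.8%, beside the 46.6% of all tested genes). With 2 µM CBP30 8 rose and 10 fell (40% of the lists, beside 32.1% of all tested genes), and these counts were 9 and 13 without the library that stood apart and 11 and 11 with the length trend removed. They were 18 and 15 without the other sample of that group, 3 and 6 without replicate 2 of DMSO, and 0 and 1 when only the 4 samples compared were fitted. With 5 µM I-CBP112 4 rose and 2 fell (13.3%, beside 7.12%), and with 2 µM I-CBP112 1 fell (2.22%, beside 1.60%). The I-CBP112 counts rested on which libraries estimated the spread: without either 2 µM CBP30 sample 16 genes were called at 5 µM and 10 at 2 µM, and without any 1 of the other 8 libraries 2 were called at 5 µM and 0 or 1 at 2 µM. The lists, like the members, were not independent of earlier results on these samples.

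Of 4 other survival genes 2 were tested with 5 µM CBP30, and limma called 0 of them (1 at an unadjusted p under 0.05). The tested genes were BCL2L12, at 51.9 and 47.4 FPKM in DMSO, 78.0 and 56.8 with 2 µM CBP30 and 48.9 and 49.5 with 5 µM CBP30, and BCL2L2, at 7.77 to 9.05 FPKM over all 10 samples. BCL2A1 was at 0.08 or below. Of 10 other effector-like and BH3-only genes 6 were tested, of which 3 rose and 2 fell (83.3% called, beside 46.6% of all tested genes). BNIP3L, a mitophagy receptor induced during red cell maturation, rose from 20.1 and 20.3 FPKM to 49.7 and 52.4 (1.29, SE 0.0508, adjusted p = 5.52e-06). MOAP1 (0.44), a partner of BAX, and BMF (0.28), a BH3-only gene, rose as well, and BOK (-0.90), a further effector, and BCL2L13 (-0.45) fell.

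In the list of mitochondrial release and caspase activation, 1 of 11 genes rose, 5 fell and 5 did not pass with 5 µM CBP30. The share called was 54.5%, beside 46.6% of all tested genes. APAF1 (0.63, SE 0.130, adjusted p = 0.00643), the scaffold of the apoptosome, was the gene that rose. HTRA2 (-0.77), a protease released from mitochondria, AIFM1 (-0.45), a mitochondrial flavoprotein, and VDAC1 (-0.36), a channel of the outer membrane, were among those that fell. With 5 µM I-CBP112 limma called 0 of the 11, with 2 at an unadjusted p under 0.05, beside 7.12% of all tested genes called.

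Among 4 tested inhibitors of apoptosis, BIRC2 alone was called, rising from 19.9 and 20.3 FPKM to 32.2 and 31.2 with 5 µM CBP30 (0.63, SE 0.0494, adjusted p = 9.05e-05). Of 9 tested death receptor genes 4 rose and 1 fell (55.6% called, beside 46.6% of all tested genes). RIPK1 (0.76) and CASP8 (0.55), the kinase and the protease of the receptor complexes, and the receptor TNFRSF1A (0.43) rose, while the TRAIL receptor TNFRSF10A went from 20.6 and 20.7 FPKM to 11.7 and 10.6 (-0.83, SE 0.117, adjusted p = 0.00117). Of 13 known regulators of the members 2 rose and 7 fell (69.2% called, beside the same 46.6%). Besides MYC and GATA1, TRIB3, a stress-induced pseudokinase, fell from 196 and 192 FPKM to 65.3 and 63.9 (-1.57, SE 0.109, adjusted p = 5.39e-05), and TP73 (0.37), a transcription factor, and FBXW7 (0.25), a ubiquitin ligase subunit that targets MCL1, rose. The call of FBXW7 (adjusted p = 0.0421) was lost in 12 of 20 alternatives, with 0.15 and an adjusted p of 0.229 without replicate 1 of DMSO.

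**Figure D4:**
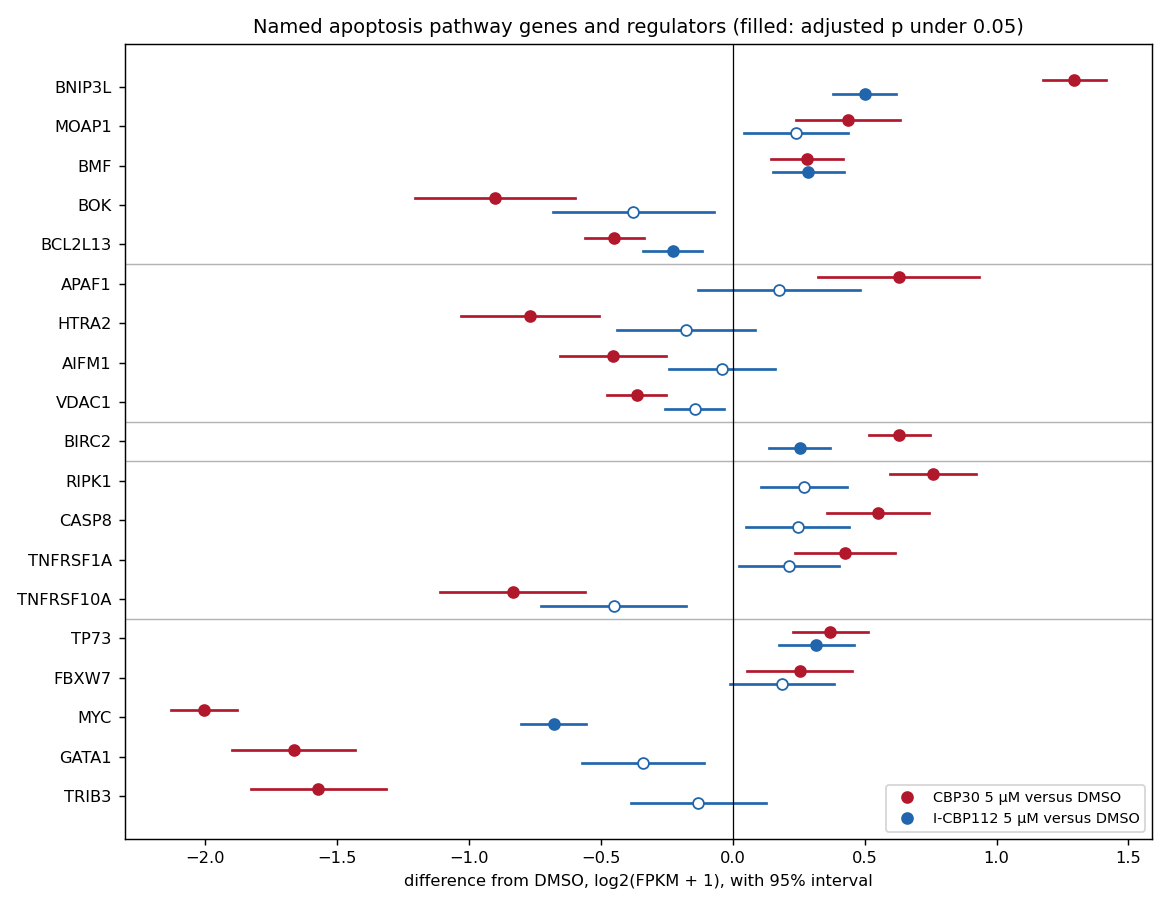
Difference from DMSO on the log2(FPKM + 1) scale, with 95% intervals from limma, of the named pathway genes and regulators at 5 µM, CBP30 in red and I-CBP112 in blue; filled points have an adjusted p under 0.05 and grey lines separate the lists. With CBP30 the range runs from -2.00 for MYC to 1.29 for BNIP3L, and the genes shown were chosen for being called with 5 µM CBP30.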

How the data were processed

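The deposited table held 1 FPKM column per sample, with replicates not pooled and 0 columns left without a sample. The submitters' processing notes name FastQC, TopHat2 2.0.10, Bowtie 1.0.0, SAMtools 0.1.19, Cufflinks 2.2.1 and Cuffnorm with GRCh37, and the authors made these FPKM values from stranded poly(A) libraries sequenced as single reads. Per the labels, each condition had 2 biological replicates. FPKM depends on transcript length and on a library-wide scaling, so a shift in abundant genes moves all others. Read counts are not held in the table. Relative depth, read from the steps of low values of 351 genes, differed by up to 1.21 times between samples (0.902 to 1.09), and no counting interval was derived from it. Only genes whose nonzero values lay close together were used, so a much larger difference in depth could not have shown.

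Genes averaging 0.5 FPKM or more (12788 of 23284, all 10 members among them) were analysed as log2(FPKM + 1), with a pseudocount of 1, in limma 3.58.1 (R 4.3.3), with 1 fit of all 5 groups, 5 residual degrees of freedom and 2.15 prior ones from eBayes with a trend. P-values were adjusted by Benjamini-Hochberg over all tested genes within each of 9 contrasts, and genes under 0.05 were called. The 4 comparisons with DMSO share its 2 samples, and all contrasts share 1 estimate of the spread. The code was tested on simulated data. Members and lists were chosen with earlier results of these data known. Named pathway genes were, per list, up to 3 risen and 3 fallen calls with the largest difference at 5 µM CBP30. Other named genes were all members, GATA1, MYC and the 5 genes most correlated with BCL2L1. BCL2L2, BCL2L12, BCL2A1 and the single markers were named after their values were seen. Some genes of the marker and pathway lists are not reported here and are left out of the list counts and sums.

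Gene positions and lengths came from GENCODE for GRCh37. The length trend was removed, as an alternative, over the 94.9% of tested genes with a length. Alternatives covered the pseudocount, the filter, the scaling, the variance trend, the samples fitted, a replicate block and each library in turn. Figures were drawn with matplotlib 3.10.9 in Python 3.11.15.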

Additional observations from a re-analysis of the deposited data

Results flagged for a closer look

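The response of BCL2L11, which encodes BIM, to a higher concentration differed between the inhibitors. Its step from 2 to 5 µM was larger with CBP30 than with I-CBP112 by 0.59 on the log2(FPKM + 1) scale (limma interaction, SE 0.104, adjusted p = 0.0330). With CBP30 the samples went from 28.3 and 32.5 FPKM at 2 µM to 46.7 and 47.6 at 5 µM, and with I-CBP112 from 28.7 and 28.2 to 30.5 and 27.8. The adjusted p missed the threshold in 10 of 20 alternatives, 8 of them with 1 library left out. Those 8 concerned either sample of DMSO, of 5 µM CBP30 and of each I-CBP112 concentration, and gave 0.52 to 0.65 with adjusted p of 0.0761 to 0.135. Without replicate 1 of 2 µM CBP30, the library that stood apart, the call held.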

How the results depend on the processing

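Over the members and named pathway genes no call changed direction under any alternative. The 8 member calls with 5 µM CBP30 stayed 8 in every alternative that kept all libraries and ranged from 6 to 10 with 1 library left out. Fits of nothing but the 2 groups of a contrast (4 for the interaction) were also made. The count of members called then fell to 0 for 2 µM CBP30 versus DMSO and 5 versus 2 µM CBP30. It also fell to 0 for CBP30 versus I-CBP112 at 2 µM and for the interaction. In these contrasts 3, 6, 3 and 4 members had an unadjusted limma p under 0.05. All of them include the 2 µM CBP30 samples, and the cause of the fall was not tested. For 5 µM CBP30 versus DMSO, a fit of only these groups called 7797 of all 12788 tested genes, against 5962 with all 5 groups. In such a fit the count of members called was 8 for 5 µM CBP30 versus DMSO, 3 for 5 µM I-CBP112 versus DMSO and 6 for the inhibitors at 5 µM. For 5 µM I-CBP112 versus DMSO it was 1 with no filter, a filter at 5 FPKM, median centring, eBayes without the trend or a replicate block, and 0 to 3 with 1 library left out. Removing the length trend gave 1 for 2 µM I-CBP112 versus DMSO, 5 for CBP30 versus I-CBP112 at 2 µM and 3 for the interaction, the last 2 also with the replicate block added. No filter gave 1 for CBP30 versus I-CBP112 at 2 µM, and quantile normalization gave 4 for the interaction. With 1 library left out, the counts ranged from 3 to 6 for 2 µM CBP30 versus DMSO, 0 to 1 for 2 µM I-CBP112 versus DMSO, 3 to 8 for 5 versus 2 µM CBP30, 3 to 6 for CBP30 versus I-CBP112 at 5 µM, 0 to 5 at 2 µM and 0 to 6 for the interaction. Where an arm was left with 1 sample, that sample was assumed to vary like the other groups.

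Like-numbered samples showed no shared shift: their deviations from the group means had 10 correlations of -0.07 to 0.09. With 2 samples per group this cannot exclude that like-numbered samples were handled together, and the labels do not say. With a replicate block the members called were 8, 3, 1 and 0 for 5 and 2 µM CBP30 and 5 and 2 µM I-CBP112 versus DMSO, 6 for 5 versus 2 µM CBP30, 0 between the I-CBP112 concentrations, 6 and 2 between the inhibitors at 5 and 2 µM, and 0 for the interaction. Over all tested genes, the count called fell from 4111 to 307 for 2 µM CBP30 versus DMSO when nothing but these groups was fitted, and from 4979 to 6 for 5 versus 2 µM CBP30 and 1993 to 14 for the inhibitors at 2 µM; it rose from 910 to 1661 for 5 µM I-CBP112 versus DMSO and from 4020 to 6556 for the inhibitors at 5 µM. For 2 µM I-CBP112 versus DMSO 205 calls became 28 in that fit, 131 with a filter at 5 FPKM, 111 with the block and 558 without the length trend, which also gave 1861 for 5 µM I-CBP112 and 2992 for the inhibitors at 2 µM (394 and 1659 for I-CBP112 at 2 and 5 µM with the block added). Between the I-CBP112 concentrations 8 calls became 13 with no filter, 5 with a filter at 5 FPKM and 14 with only these groups. For the interaction 632 calls became 419 with no filter, 92 with only its groups, 193 with the block, and 1013 and 993 with quantile normalization and without the length trend, which moved the share of higher calls by over 10 percentage points (436 and 433 higher, against 208). With 2 samples per group and no read counts, the precision rests on the spread between libraries.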
